A study of Homo sapiens with 6 samples.

Results

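The 41 genes described here encode scaffold, signalling and adhesion proteins of the postsynaptic side of synapses. They were chosen as a list of gene symbols, and all 41 were among the 18056 genes listed and had enough counts to test. Poly(A) RNA was sequenced from dorsal forebrain organoids, cultured tissues that form cortical neurons, all made from DYR0100 cells, a human iPSC line whose genotype is labelled WT. Every value thus stems from 1 line. For 6 days 3 samples received vehicle, while the other 3 received Aβ42, the aggregation-prone form of amyloid-β, at 5 µM. The labels place all 6 in 1 batch, and the series describes the replicates of a condition as independent biological ones. The age of the organoids is not given in the sources used here.

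At excitatory synapses the receptors for glutamate sit in a dense protein lattice. Membrane-associated guanylate kinases of the DLG family hold receptors and adhesion proteins, DLGAP proteins link them to SHANK proteins, and SHANK binds HOMER, which reaches the actin cytoskeleton and the metabotropic receptors. Adhesion proteins such as neuroligins, LRRTM proteins and SLITRK proteins cross the cleft and bind partners on the presynaptic side, while the calcium-activated kinase CaMKII and regulators of small GTPases adjust the size and strength of the contact. Many of these proteins accumulate as cortical neurons mature, and soluble amyloid-β is known to act on synapses.

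Total estimated counts were 16465390 to 16742958 per library. Aβ42 replicate 2 stood apart from the other Aβ42 libraries: per gene, the chi-square statistic of its counts was 3.16 against vehicle replicate 1 but 9.4 and 8.49 against Aβ42 replicates 1 and 3. Values without it are given where they differ in call. It was singled out from these same data by its nearness to a vehicle library, so leaving it out tends to widen the differences between groups. In edgeR 3224 genes passed without it, and 0 when any other library was left out. Values without it thus describe how much rests on that library and are no separate support for a difference. Of the forebrain transcription factors on the marker list, LHX2 averaged 184 TPM, EMX2 36.9 TPM and EMX1 24.3 TPM in vehicle, and their groups overlapped (log2 fold changes -0.02, 0.03 and 0.15, the last with an adjusted p-value of 0.0381 without Aβ42 replicate 2). OTX2 was at 8.89, 14.9 and 6.58 TPM in vehicle replicates 1 to 3 and 3.67, 11.2 and 3.71 TPM in Aβ42 replicates 1 to 3, lower with Aβ42 in each pair (-0.66, adjusted p-value 0.519, with the replicate block 0.00612). The 7 markers of glutamatergic cortical neurons summed to 1405 to 1455 TPM in vehicle and 1309 to 1368 TPM with Aβ42, and the 10 pan-neuronal markers to 4525 to 4815 TPM in vehicle and 4265 to 4501 TPM with Aβ42. Microglial markers summed to 0.43 to 0.76 TPM in vehicle and 0.38 to 1.27 TPM with Aβ42, with C1QA at 0 in every library. Choroid plexus markers, led by TTR, summed to 3338 to 7555 TPM in vehicle and 2835 to 6650.4 TPM with Aβ42. In bulk RNA, fewer cells of a type and less RNA per cell cannot be told apart.

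Levels between genes are compared in TPM, the deposited values scaled for transcript length. DLG4, which encodes PSD-95, had the highest level of the 41 genes, at 201 ± 6.56 TPM in vehicle (mean ± SD, n = 3), and LRRTM1 the lowest, at 1.57 ± 0.05 TPM. After DLG4 came DLGAP4 (163 ± 0.612 TPM), NLGN2 (114 ± 2.27 TPM) and CAMK2B (108 ± 8.21 TPM). The ranges of NLGN2 and CAMK2B overlapped over the 3 vehicle libraries, while DLG4 and DLGAP4 each stood clear of the next gene. CAMK2A, the α subunit of CaMKII and typical of mature forebrain neurons, was near the low end at 3.32 ± 0.197 TPM, rank 39 of 41. NRGN, which encodes the calmodulin-binding protein neurogranin, ranked 23 at 23.2 ± 4.67 TPM. NRGN ranged over the vehicle libraries from 18.3 TPM in replicate 1 to 27.6 TPM in replicate 2.

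**Figure D1:**
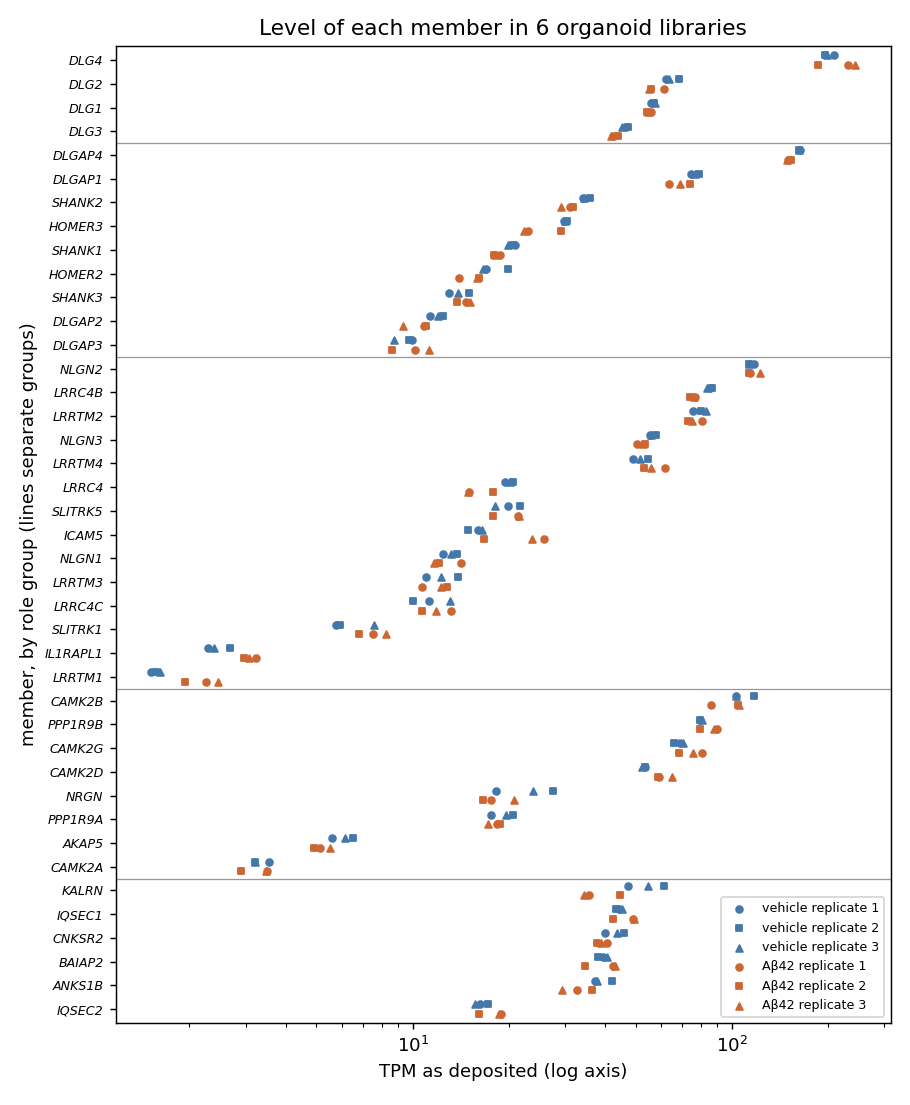
Deposited TPM (log axis) of the 41 genes in each of the 6 libraries, vehicle in blue and Aβ42 in orange, with genes sorted by vehicle mean inside each role group. DLG4 lies highest in every library, and LRRTM1, IL1RAPL1 and CAMK2A lie at the low end.

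Comparing Aβ42 with vehicle by the quasi-likelihood test of edgeR (adjusted p-value under 0.05), 0 of the 41 genes passed, and over all 13842 genes tested the share called was also 0.0%. Before adjustment, 14 of the 41 had a p-value under 0.05, 6 higher and 8 lower with Aβ42, or 34.1%, beside 23.9% of all genes tested. That number rested in part on single libraries, being 20 when Aβ42 replicate 2 was left out, 9 and 6 when vehicle replicate 1 or 2 was, and 7 when Aβ42 replicate 3 was. The number over all genes moved the same way. It was 3302 with all libraries and 5170, 3015, 1920 and 1871 in the order just given. The 3 Aβ42 values lay all above the 3 vehicle values for 4 genes and all below for 12, together 39.0% of the 41. Over all genes tested 27.0% did not overlap, 13.6% higher and 13.4% lower. With Aβ42 replicate 2 left out, which leaves fewer values to overlap, the count was 27 of the 41 (65.9%), beside 53.5% of all genes tested. The log2 fold changes of the 41 had a median of -0.02, with 18 above and 23 below 0, beside 0.00 over all genes tested. Without Aβ42 replicate 2 the median was 0.02.

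The replicate numbers were treated as pairs in 1 alternative fit, which is an assumption for replicates 1 and 3. Deviations from the group mean correlated at 0.192, 0.409 and 0.135 between same-numbered libraries 1 to 3 (12187 genes). Vehicle replicate 3 with Aβ42 replicate 1 (0.193) and vehicle replicate 1 with Aβ42 replicate 3 (0.168) reached a similar degree. Deviations from a mean of 3 libraries sum to 0 in each group. Agreement of the libraries numbered 2 thus pushes the values among replicates 1 and 3 upward, and 0.192 and 0.135 are no evidence of pairing. With the number as a block in edgeR, 6 of the 41 passed, or 14.6%, beside 14.2% of all genes tested. ICAM5, CAMK2D and CAMK2G were higher with Aβ42 (7.12% of all genes tested were called higher), and KALRN, LRRC4 and ANKS1B were lower (7.05% called lower). By the DESeq2 Wald test without block 2 of the 41 passed, ICAM5 and CAMK2D, both higher (5.88% of all genes tested were called, 2.81% higher and 3.07% lower). In edgeR without Aβ42 replicate 2 and without a block, these 6 and 8 more passed, 14 in all, beside 23.1% of genes in that fit.

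**Figure D2:**
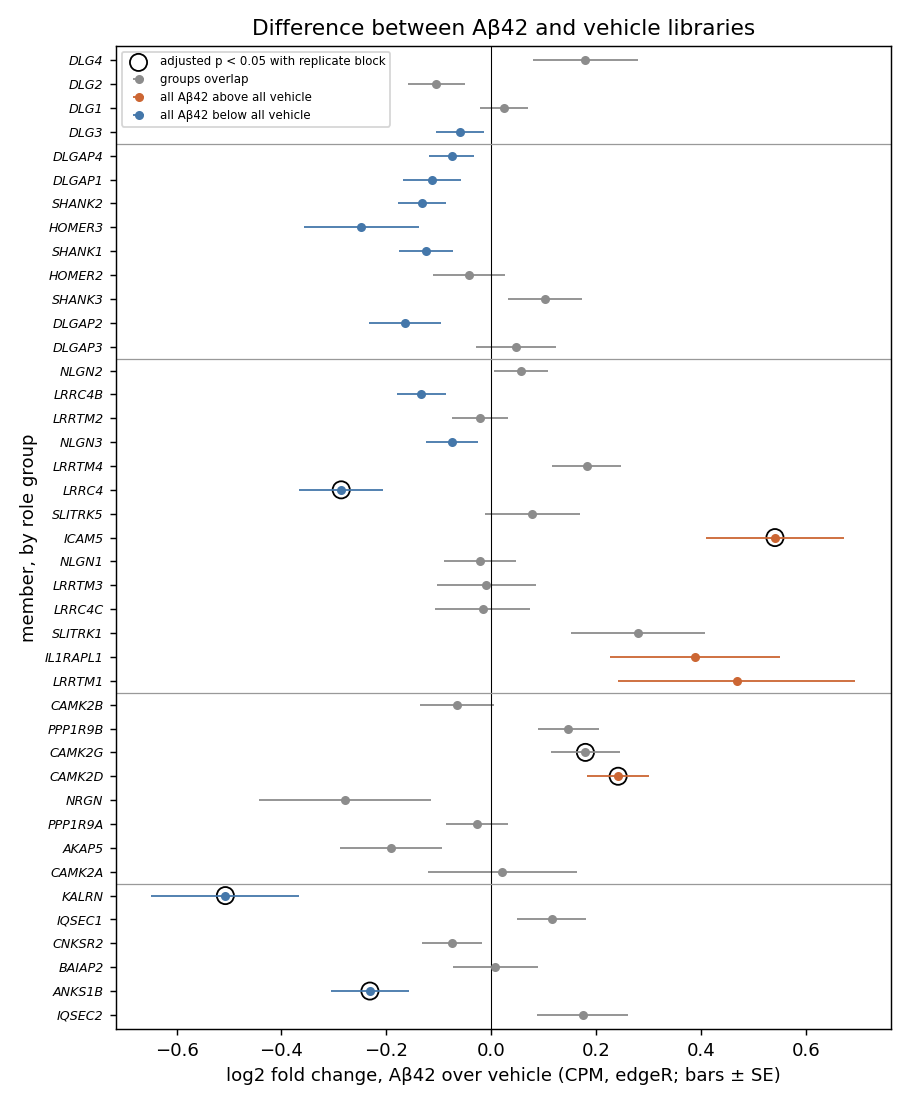
Log2 fold change of Aβ42 over vehicle for the 41 genes (points, edgeR without block; bars ± SE), coloured by whether the CPM values of the groups overlap and ringed where the adjusted p-value with the replicate block is under 0.05. The values run from -0.51 for KALRN to 0.54 for ICAM5, and 16 genes show no overlap.

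Of the 4 DLG genes 0 passed with or without the block, and DLG4 was above its vehicle values in Aβ42 replicates 1 and 3 but not in replicate 2. DLG4 (Entrez gene ID 1742), which anchors glutamate receptors, was at 254, 232 and 237 CPM in vehicle replicates 1 to 3 and 287, 228 and 305 CPM in Aβ42 replicates 1 to 3 (CPM being the count scaled to library size with TMM factors). Aβ42 replicate 2 lay below all 3 vehicle libraries, and the log2 fold change was 0.18 ± 0.10 (SE), adjusted p-value 0.308. Without that library it was 0.29, adjusted p-value 0.00215. DLG3 (Entrez gene ID 1741), an X-linked relative also called SAP102, was at 98.8, 96.2 and 95.4 CPM in vehicle replicates 1 to 3 and 92.5, 93.7 and 92.4 CPM in Aβ42 replicates 1 to 3. All 3 Aβ42 values lay below all 3 vehicle values, by little (-0.06 ± 0.05, adjusted p-value 0.437). DLG2 (PSD-93) and DLG1 (SAP97) overlapped between groups, with log2 fold changes of -0.10 and 0.02. On the log2(TPM + 1) scale DLG1 had the opposite sign, -0.0437.

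Of the 9 SHANK, HOMER and DLGAP genes, 7 had a negative log2 fold change. Of these, 6 did not overlap between groups (66.7% of the 9), beside 13.4% of all genes tested that lay lower without overlap. None passed, with or without the block. SHANK1 (Entrez gene ID 50944) was at 81.5, 78.6 and 76.5 CPM in vehicle replicates 1 to 3 and 73.8, 70.1 and 73.2 CPM in Aβ42 replicates 1 to 3, a log2 fold change of -0.12 ± 0.05 (adjusted p-value 0.177). SHANK2 (Entrez gene ID 22941) was at 127, 130.1 and 126 CPM in vehicle replicates 1 to 3 and 117, 119.6 and 113 CPM in Aβ42 replicates 1 to 3, and its log2 fold change was -0.13 ± 0.05 (0.128, and 0.0344 without Aβ42 replicate 2). Both genes, which encode the deep scaffold of the postsynaptic density, were thus lower in each Aβ42 library than in any vehicle library. SHANK3 (Entrez gene ID 85358), the third of the family, went the other way without separating: it was at 40.1, 45.1 and 42.3 CPM in vehicle replicates 1 to 3 and 45.8, 42.7 and 48.4 CPM in Aβ42 replicates 1 to 3, with a log2 fold change of 0.10 ± 0.07 (0.387).

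DLGAP proteins join DLG to SHANK. DLGAP1 (Entrez gene ID 9229) was at 153, 159 and 153 CPM in vehicle replicates 1 to 3 and 134, 152 and 145 CPM in Aβ42 replicates 1 to 3 (log2 fold change -0.11 ± 0.05, adjusted p-value 0.233, and 0.0421 without Aβ42 replicate 2). DLGAP2 (Entrez gene ID 9228) was at 43.8, 46.1 and 45.4 CPM in vehicle replicates 1 to 3 and 42.1, 41.8 and 36.8 CPM in Aβ42 replicates 1 to 3 (-0.16 ± 0.07, 0.177). The most abundant of them per length, DLGAP4 (Entrez gene ID 22839), was at 186, 182 and 186 CPM in vehicle replicates 1 to 3 and 172, 178 and 176 CPM in Aβ42 replicates 1 to 3 (-0.07 ± 0.04, 0.308). In all 3 the groups were apart, although Aβ42 replicate 2 came close to the lowest vehicle value for DLGAP1. DLGAP3 overlapped, with a log2 fold change of 0.05.

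HOMER proteins tie SHANK to metabotropic glutamate receptors and to calcium stores. HOMER3 (Entrez gene ID 9454) was at 15.0, 15.0 and 15.0 CPM in vehicle replicates 1 to 3 and 11.6, 14.7 and 11.5 CPM in Aβ42 replicates 1 to 3. Its vehicle libraries were nearly equal, Aβ42 replicates 1 and 3 lay well below them, and Aβ42 replicate 2 lay just under the vehicle values. The log2 fold change was -0.25 ± 0.11 (adjusted p-value 0.202), and -0.37 (0.0158) without Aβ42 replicate 2. HOMER2 overlapped (-0.04).

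The 14 adhesion genes divided evenly, with 7 positive and 7 negative log2 fold changes, and held both the member that was highest with Aβ42 and the one of this role that was lowest. ICAM5 (Entrez gene ID 7087, chr19:10289952-10296778) encodes telencephalin, an adhesion protein of forebrain dendrites that is known to slow the maturation of filopodia into spines. It was at 16.9, 16.2 and 17.5 CPM in vehicle replicates 1 to 3 and 27.9, 19.1 and 26.6 CPM in Aβ42 replicates 1 to 3. Aβ42 replicates 1 and 3 stood far above vehicle, and Aβ42 replicate 2 stood only just above it. The log2 fold change was 0.54 ± 0.13 with an adjusted p-value of 0.0734. With the replicate block the adjusted p-value was 0.00191, by the DESeq2 Wald test 0.00899, and without Aβ42 replicate 2 0.000291.

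IL1RAPL1 and LRRTM1 were the other adhesion genes with all Aβ42 values above all vehicle values, and both are near the bottom of the list in level. IL1RAPL1 (Entrez gene ID 11141), an X-linked partner of the presynaptic phosphatase PTPRD, was at 3.18, 3.59 and 3.23 CPM in vehicle replicates 1 to 3 and 4.51, 4.16 and 4.44 CPM in Aβ42 replicates 1 to 3 (0.39 ± 0.16, adjusted p-value 0.178). LRRTM1 (Entrez gene ID 347730), which binds neurexins, was at 1.44, 1.46 and 1.52 CPM in vehicle replicates 1 to 3 and 2.13, 1.78 and 2.22 CPM in Aβ42 replicates 1 to 3 (0.47 ± 0.23, 0.233). It rested on 24 to 37 counts per library, so counting error is large, and neither gene passed with the block (0.142 and 0.212). LRRTM4, a heparan sulfate-binding relative, overlapped by a small margin, with a log2 fold change of 0.18 ± 0.07 (0.139, and 0.0109 without Aβ42 replicate 2).

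LRRC4, LRRC4B and NLGN3 were the adhesion genes with all Aβ42 values below all vehicle values. LRRC4 (Entrez gene ID 64101, chr7:128027071-128032128) encodes NGL-2, a DLG4-binding partner of netrin-G2. It was at 29.3, 30.0 and 29.7 CPM in vehicle replicates 1 to 3 and 22.8, 27.0 and 23.2 CPM in Aβ42 replicates 1 to 3, with close vehicle values and with Aβ42 replicate 2 nearest to them. Its log2 fold change was -0.29 ± 0.08 (adjusted p-value 0.0889, with the block 0.0192, without Aβ42 replicate 2 0.00396). LRRC4 lies in an intron of SND1 on the other strand, and SND1 was higher with Aβ42 (0.21, adjusted p-value 0.0734, with the block 0.0156), so these overlapping genes differed in opposite directions with the block.

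LRRC4B (Entrez gene ID 94030), or NGL-3, was at 109, 108 and 105 CPM in vehicle replicates 1 to 3 and 98.2, 95.1 and 99.7 CPM in Aβ42 replicates 1 to 3 (-0.13 ± 0.05, adjusted p-value 0.13). NLGN3 (Entrez gene ID 54413), an X-linked neuroligin found at excitatory and inhibitory synapses, was at 86.0, 88.0 and 85.7 CPM in vehicle replicates 1 to 3 and 79.2, 82.8 and 84.6 CPM in Aβ42 replicates 1 to 3 (-0.07 ± 0.05, 0.374). Aβ42 replicate 3 came close to the lowest vehicle library for NLGN3. The excitatory neuroligin NLGN1 (Entrez gene ID 22871) overlapped, at 77.3, 80.7 and 80.3 CPM in vehicle replicates 1 to 3 and 87.3, 74.1 and 73.7 CPM in Aβ42 replicates 1 to 3 (-0.02 ± 0.07, 0.875), with Aβ42 replicate 1 the highest of all libraries. The inhibitory neuroligin NLGN2 (Entrez gene ID 57555), most abundant of the family per length, was at 205, 194 and 197 CPM in vehicle replicates 1 to 3 and 202, 199 and 219 CPM in Aβ42 replicates 1 to 3 (0.06 ± 0.05, 0.517), and its groups overlapped too. The other 5 adhesion genes, LRRTM2, LRRTM3, LRRC4C, SLITRK1 and SLITRK5, overlapped, with log2 fold changes from -0.02 for LRRTM2 to 0.28 for SLITRK1.

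Of the 8 genes for CaMKII subunits, neurogranin and anchors of kinases or phosphatases, CAMK2D and CAMK2G were higher with Aβ42 in the fit with the replicate block, and the other 6 did not pass it. CAMK2D (Entrez gene ID 817, chr4:113451032-113761738), the δ subunit, which is also expressed outside the brain, was at 93.8, 94.2 and 93.2 CPM in vehicle replicates 1 to 3 and 107, 105 and 121 CPM in Aβ42 replicates 1 to 3. Every Aβ42 value lay above every vehicle value, Aβ42 replicate 2 included. The log2 fold change was 0.24 ± 0.06, the adjusted p-value 0.0734, and it was 0.0106 with the replicate block, 0.0238 by DESeq2 and 0.00399 without Aβ42 replicate 2. Without a filter on low counts CAMK2D also passed. CAMK2G (Entrez gene ID 818, chr10:73812501-73874555), the γ subunit, was at 93.4, 86.9 and 93.8 CPM in vehicle replicates 1 to 3 and 110.1, 93.7 and 107 CPM in Aβ42 replicates 1 to 3, where Aβ42 replicate 2 fell among the vehicle libraries. It is named although the groups overlap because it passed with the block (0.0361), a choice made after its values were seen. Its log2 fold change was 0.18 ± 0.07 (adjusted p-value 0.139, and 0.00568 without Aβ42 replicate 2).

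The upstream sequences of CAMK2G, CAMK2D and ICAM5 are shown because these are the 3 genes that were higher with the replicate block, and each has 1 start in the RefSeq promoter table (GRCh38.p14). Each run begins 250 bases before that start and reads 5′ to 3′ on the gene's strand. It stops where the first exon annotated in GENCODE on that strand begins, so 214 bases are printed for CAMK2G and 61 for CAMK2D. The ICAM5 window meets no such exon and is printed whole, at 250 bases. A stretch just after the ICAM5 start was not found in any GENCODE transcript of that gene. Capitals mark the GC box GGGCGG on either strand.
CAMK2G (chr10:73874592-73874805, minus strand): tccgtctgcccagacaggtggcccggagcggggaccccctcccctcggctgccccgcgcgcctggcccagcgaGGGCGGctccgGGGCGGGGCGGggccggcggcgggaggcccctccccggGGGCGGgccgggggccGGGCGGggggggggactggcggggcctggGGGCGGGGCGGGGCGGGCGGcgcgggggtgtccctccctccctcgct
CAMK2D (chr4:113761928-113761988, minus strand): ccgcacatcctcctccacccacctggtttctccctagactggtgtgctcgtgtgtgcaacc
ICAM5 (chr19:10289702-10289951, plus strand): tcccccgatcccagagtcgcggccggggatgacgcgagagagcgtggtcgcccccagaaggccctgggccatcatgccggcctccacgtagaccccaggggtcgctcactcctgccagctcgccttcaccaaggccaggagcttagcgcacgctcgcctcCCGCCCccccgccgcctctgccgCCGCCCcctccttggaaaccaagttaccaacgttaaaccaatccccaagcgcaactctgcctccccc

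Over the full 250 bases the share of G and C was 84.8% for CAMK2G, 67.6% for CAMK2D and 68.8% for ICAM5, beside a median of 58.0% over all windows of that length. The GC box occurs 9 times in CAMK2G, counting overlaps, 2 times in ICAM5 and 0 times in CAMK2D. It is present in 42.6% of the 35116 windows of the table and in 40 of 77 windows (51.9%) of the 35 member genes the table holds. The 3 full windows lack TATAAA (10.7% of all windows), TGACGTCA (1.65%) or CACGTG (6.34%) on either strand, and ICAM5 alone has CCAAT (32.0%). A match is a description of the letters and shows no bound factor.

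CAMK2A (Entrez gene ID 815), the subunit typical of mature excitatory forebrain neurons, was at 6.67, 5.90 and 6.10 CPM in vehicle replicates 1 to 3 and 6.70, 5.46 and 6.78 CPM in Aβ42 replicates 1 to 3 (0.02 ± 0.14, adjusted p-value 0.94). CAMK2B (Entrez gene ID 816), the actin-binding subunit, was at 126, 140.4 and 127 CPM in vehicle replicates 1 to 3 and 113, 131 and 133 CPM in Aβ42 replicates 1 to 3 (-0.06 ± 0.07, 0.592). Both overlapped between groups. The sign for CAMK2A turned on the TPM scale (-0.0111 on log2(TPM + 1)), and that for CAMK2B without Aβ42 replicate 1. NRGN (Entrez gene ID 4900) was at 6.73, 9.91 and 8.60 CPM in vehicle replicates 1 to 3 and 6.64, 6.18 and 7.98 CPM in Aβ42 replicates 1 to 3 (-0.28 ± 0.16, 0.318), with vehicle replicate 1 among the Aβ42 values. The spinophilin gene PPP1R9B, whose product holds protein phosphatase 1 in spines, had a log2 fold change of 0.15 ± 0.06 (0.163, and 0.00601 without Aβ42 replicate 2). Its relative PPP1R9A (neurabin) was at -0.03, and AKAP5, which anchors protein kinase A and calcineurin, at -0.19. All 3 of these overlapped.

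Among the 6 GTPase regulators and adaptors, KALRN had the lowest log2 fold change of the 41 genes. KALRN (Entrez gene ID 8997, chr3:124033369-124726325) encodes kalirin, a guanine nucleotide exchange factor for Rac that enlarges spines. It was at 215, 272 and 236 CPM in vehicle replicates 1 to 3 and 153, 204 and 152 CPM in Aβ42 replicates 1 to 3. In each replicate number the Aβ42 library was lower than its vehicle counterpart, and the spread inside each group was wide, with both libraries numbered 2 the highest of their group. The log2 fold change was -0.51 ± 0.14, with an adjusted p-value of 0.115 without and 4.35e-05 with the replicate block. Without Aβ42 replicate 2 it was -0.66 (0.00326).

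ANKS1B (Entrez gene ID 56899, chr12:98734786-99984936), whose product AIDA-1 binds DLG4 and, as background, was found as a partner of the amyloid precursor protein's tail, was at 67.8, 73.5 and 64.9 CPM in vehicle replicates 1 to 3 and 58.0, 64.3 and 53.4 CPM in Aβ42 replicates 1 to 3. All Aβ42 values lay below all vehicle values, with Aβ42 replicate 2 just below them. Its log2 fold change was -0.23 ± 0.07 (adjusted p-value 0.115, with the block 0.0137, without Aβ42 replicate 2 0.00676). Its deposited counts were not whole numbers in any library. Those of AKAP5 were fractional in the 3 vehicle libraries and whole in the 3 Aβ42 libraries, and those of the other 39 genes were whole throughout. The Arf exchange factors IQSEC1 and IQSEC2 had log2 fold changes of 0.12 and 0.17 and passed without Aβ42 replicate 2 (0.0125 and 0.0146) but not with the block (0.182 and 0.151). BAIAP2 (IRSp53, an actin-bundling adaptor) and CNKSR2 (a Ras pathway scaffold) overlapped, at 0.01 and -0.07.

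**Figure D3:**
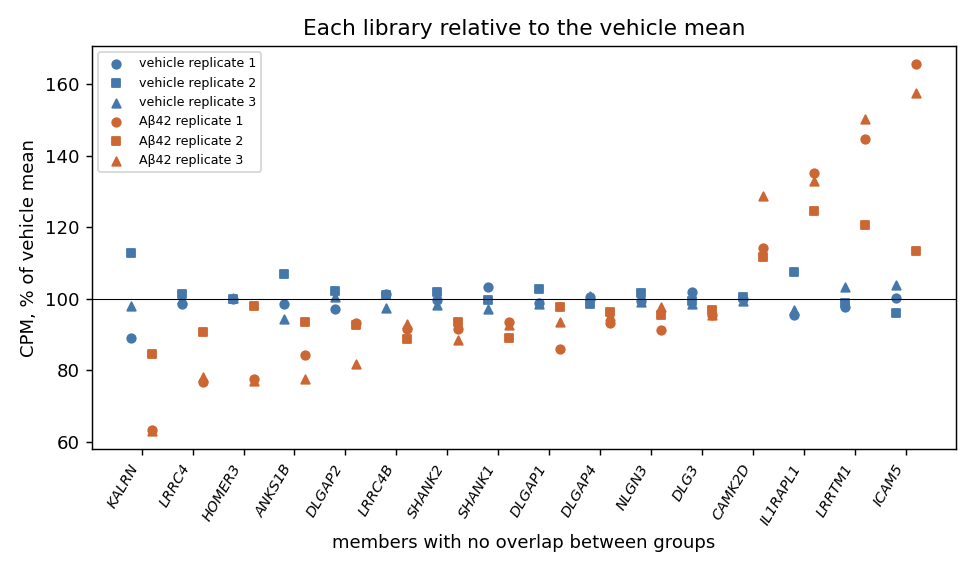
CPM of each library as a percentage of the vehicle mean (line at 100%) for the 16 genes whose groups do not overlap, vehicle in blue, Aβ42 in orange, marker shape giving the replicate number. The square of Aβ42 replicate 2 is the orange point nearest to vehicle for most genes, and the Aβ42 means of KALRN, IL1RAPL1, LRRTM1 and ICAM5 lie farthest from 100%.

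Of the 7 glutamatergic neuron markers 4 lay lower with Aβ42 without overlap and 0 higher (median log2 fold change -0.14), and of the 10 pan-neuronal markers 3 lay lower and 1 higher (median 0.01). Over all genes tested 13.4% lay lower without overlap and 13.6% higher. Among the 7, 6 had a negative log2 fold change, and SLC17A7 a positive one with overlap (0.14). The summed TPM of the glutamatergic and the pan-neuronal list, given above, did not overlap between groups, by a narrow margin. TPM sums carry the median log2 difference of -0.04 that all genes had in TPM, so the separation may reflect that scaling. The 5 markers of cycling cells summed to 274 to 327 TPM in vehicle and 172 to 251 TPM with Aβ42, without overlap, and 4 of them lay lower. The 5 astrocyte markers summed to 54.4 to 81.9 TPM in vehicle and 40.6 to 62.0 TPM with Aβ42, with S100B at -1.25 (with the block 0.000941) and GJA1 at -0.84 (0.00053). Of these 5, 4 had a negative log2 fold change, and ALDH1L1 was higher without overlap (0.33, with the block 0.0823). The radial glia markers overlapped in sum, at 2107 to 2376 TPM in vehicle and 2217 to 2317 TPM with Aβ42, with HOPX at -0.45 (0.000503) and NES at -0.20 (0.0208). The other 4 radial glia markers had a positive log2 fold change, HES1 without overlap (0.21, with the block 0.198). CLIC6 of the choroid plexus list (-0.57, 0.000309) and DCN of the mesenchymal list (-1.17, 2.28e-06) were also lower with the block. In the same lists AQP1 (0.59), COL1A1 (0.46) and PDGFRB (0.18) had positive log2 fold changes and did not pass with the block (0.332, 0.353 and 0.188). The part of any of these in the results for the 41 genes was not tested.

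Within families, the share of each gene in the summed TPM of its family was compared. Of 29 shares in 11 families, 10 did not overlap between groups, each with an exact permutation p-value of 0.1 (two-sided), the smallest that 3 libraries against 3 allow, and 0.29 after adjustment over the 29. CAMK2B made up 46.3% ± 2.27 in vehicle and 41.5% ± 3.53 with Aβ42 of the CaMKII sum (mean ± SD, n = 3 each), while CAMK2D made up 22.8% ± 0.583 in vehicle and 25.6% ± 0.515 with Aβ42, and the sum itself overlapped at 229, 239 and 229 TPM in vehicle and 229, 234 and 249 TPM with Aβ42. The share of SHANK2 was 50.3% ± 0.159 in vehicle and 48.3% ± 1.66 with Aβ42, and that of SHANK3 was 20.1% ± 0.926 in vehicle and 22.9% ± 1.27 with Aβ42.

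In the neuroligins NLGN2 had a share of 62.2% ± 1.06 in vehicle and 64.2% ± 1.13 with Aβ42 and NLGN3 one of 30.7% ± 0.702 in vehicle and 28.8% ± 0.88 with Aβ42. In the LRRTM family the share of LRRTM2 was 54.8% ± 1.27 in vehicle and 51.7% ± 0.299 with Aβ42, and that of LRRTM4 35.6% ± 0.803 in vehicle and 38.6% ± 1.01 with Aβ42, with LRRTM1 at 1.08% ± 0.0329 in vehicle and 1.50% ± 0.161 with Aβ42. DLG2 had 17.5% ± 0.941 in vehicle and 15.3% ± 1.30 with Aβ42 of the DLG sum. DLG4 held more than all others of its family together in each library, at 54.5% ± 1.36 in vehicle and 58.5% ± 3.55 with Aβ42, but its share overlapped between groups. The sums themselves did not overlap for SHANK (68.2, 71.7 and 68.2 TPM in vehicle and 64.6, 63.5 and 62.5 TPM with Aβ42), DLGAP (259, 263 and 260.2 TPM in vehicle and 234, 246 and 238 TPM with Aβ42), the HOMER pair (46.8, 50.4 and 46.5 TPM in vehicle and 36.9, 45.2 and 38.3 TPM with Aβ42) and the LRRC4 family (116, 117 and 117 TPM in vehicle and 105, 103 and 103 TPM with Aβ42), in each case lower with Aβ42. In TPM, the log2 difference over all genes had a median of -0.04, which the TPM sums also carry.

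**Figure D4:**
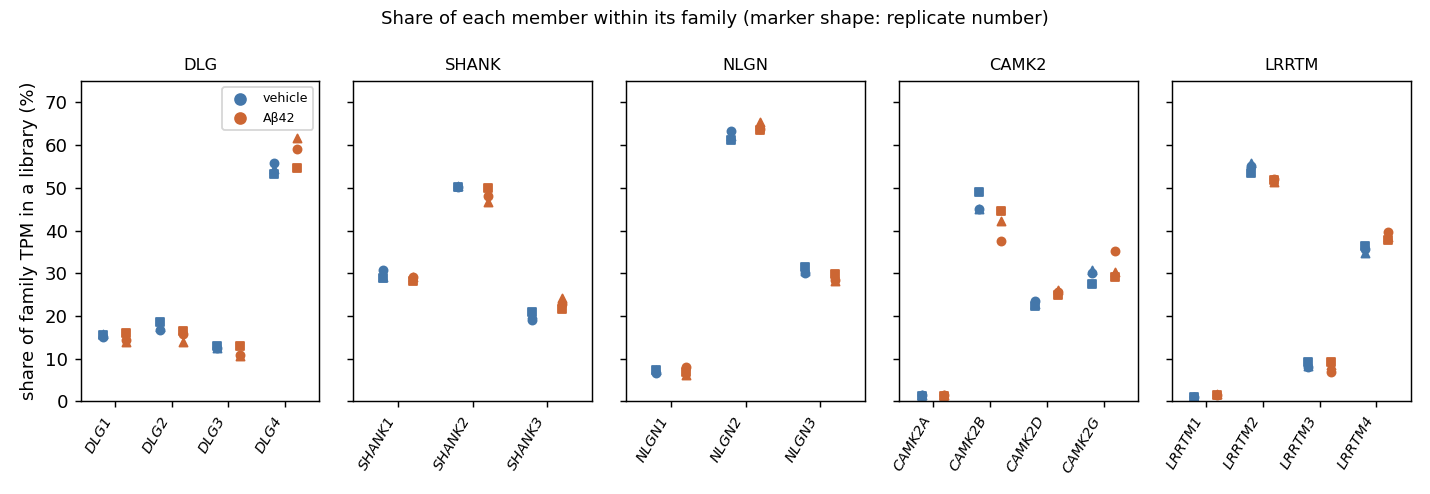
Share of each gene in the summed TPM of its family (%, axis from 0) in every library for the DLG, SHANK, NLGN, CAMK2 and LRRTM families, vehicle in blue and Aβ42 in orange, marker shape giving the replicate number. CAMK2B, DLG2, SHANK2, NLGN3 and LRRTM2 sit lower with Aβ42, and CAMK2D, SHANK3, NLGN2, LRRTM1 and LRRTM4 sit higher, in all libraries.

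The rest of the pathway was read from 3 lists of other synaptic genes, 110 of which were tested. Without the block 0 passed, and 33 fell under 0.05 before adjustment (13 higher, 20 lower, 30.0% beside 23.9% of all genes). With the block 23 passed (9 higher, 14 lower, 20.9% beside 14.2% of all genes). The median log2 fold change over the 110 was 0.00. Among scaffold genes, HOMER1, the third HOMER, averaged 71.6 ± 3.30 CPM in the vehicle group, against 61.7 ± 3.26 CPM in the Aβ42 group (mean ± SD, n = 3 each) without overlap (-0.21 ± 0.06, adjusted p-value 0.0889, with the block 0.0312). The smallest p-values in that list belonged to SYNPO (0.34) and NSMF (0.32) among genes above 0 and AKAP9 (-0.37) and HOMER1 among genes below.

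In the adhesion list the smallest p-values were those of ADGRB2 (0.20) and PTPRF (0.17) above 0 and of the latrophilin ADGRL3 (-0.45) and the teneurin TENM3 (-0.29) below, and each passed with the block (0.0118, 0.0329, 0.000397 and 0.00266). For inhibitory synapses, IGSF9B (0.39, with the block 0.000674) and INSYN1 (0.09, 0.323) led above 0, and DAG1 (-0.18, 0.0307) and MAGI2 (-0.16, 0.0612) below. Over the 3 lists, 57 of the 110 genes had a log2 fold change above 0 and 53 below.

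The ratio of estimated count to TPM of a gene was compared between libraries, since a change in it makes fold changes in CPM and in TPM differ. It varied by 27.8% of the vehicle mean over the 6 libraries for LRRC4C, by 25.1% for HOMER2 and by 17.9% for DLGAP3, and by under 9% for each of the other 38 genes. In HOMER2 the ratio was 1.22 in Aβ42 replicate 1 relative to the vehicle mean, beside 0.97 to 1.06 in the other 5 libraries. The log2 fold change of HOMER2 was -0.04 in CPM and -0.203 on the log2(TPM + 1) scale. Exons of 8 of the 41 genes overlap those of another coding gene in GENCODE, 4 more genes lie in an intron of another coding gene, the library protocol in the labels is stranded, and whether counting used the strand is not given in the sources used here. Among genes named above these include DLG4 (with ACADVL), ANKS1B (with APAF1), CAMK2A (with SLC6A7) and LRRTM1 (in CTNNA2), all on the opposite strand, so without strand their levels could hold reads of the neighbour. HOMER3 shares exon sequence with a coding gene on the same strand, which strand cannot separate.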

How the data were processed

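RNA was measured in 3 vehicle and 3 Aβ42 libraries of 1 batch, per the labels. The authors deposited an estimated count per gene and library (86.9% to 87.5% whole, within 1e-09) and, for the same genes, TPM. Per the submitters' processing notes the tools named are FastQC, STAR 2.7.11b and featureCounts 2.0.6 with GRCh38, and how each was set is not given in the sources used here. Estimated counts were rounded, filtered (filterByExpr), scaled by TMM and tested with edgeR 4.0.16 (robust quasi-likelihood, no block, two-sided), with Benjamini-Hochberg adjustment over 13842 genes at 0.05. SE is the log2 fold change over the square root of F. The fit was tested on simulated counts with the same variability between replicates for every gene and no library standing apart. There it recovered 74% of log2 changes of 0.5 and 94% of log2 changes of 1. In the data Aβ42 replicate 2 stood apart, so these shares do not carry over to them. Alternatives used DESeq2 1.42.0, limma 3.58.1, RLE factors, other filters, the replicate number as block and each library left out.

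Members and lists were chosen with earlier results of these data known. Values in every library were given for members passing the test, members without overlap in CPM, the member with the highest vehicle TPM in each role, and DLG4, SHANK3, NLGN1, CAMK2A and NRGN. Of the other lists, HOMER1 and the 2 smallest p-values per direction were named, and some items of the rule are not reported here. Same-numbered libraries correlated above 0.1 in all 3 pairs, but so did replicates 1 and 3 when crossed (0.193 and 0.168). The data thus set apart only the libraries numbered 2 (0.409). The pairing of the others is an assumption, and the labels state no pairing.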

Additional observations from a re-analysis of the deposited data

How the results depend on the processing

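With 3 libraries against 3, calls depended on the fit. The number of all genes passing was 0, and it was 360 without a filter on low counts, 814 by DESeq2 and 1962 with the replicate block. Of the 41 genes 0 passed, and 1 did so without a filter, 2 by DESeq2 and 6 with the replicate block (higher: 1, 2 and 3, lower: 3 with the block). In the other lists 0 passed, and 3, 9 and 23 did so in the same order. Leaving out 1 library gave 0 to 3224 calls over all genes, 0 to 14 of the 41 (0 to 8 higher, 0 to 6 lower) and 0 to 38 in the other lists, each highest without Aβ42 replicate 2. At an unadjusted p-value under 0.05 it gave 1871 to 5170 of all genes, 6 to 20 of the 41 and 16 to 57 in the other lists.

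Leaving out 1 library also gave 18 to 27 of the 41 without overlap (43.9% to 65.9%, beside 32.0% to 53.5% of all genes tested), a median log2 fold change of the 41 from -0.046 to 0.018 and 10 to 17 shares without overlap. The sign of the log2 fold change turned in at least 1 alternative for 11 of the 41, DLG1, HOMER2, DLGAP3, LRRTM2, LRRTM3, LRRC4C, PPP1R9A, BAIAP2 and 3 with values in every library: NLGN1 (0.018 without Aβ42 replicate 2 and 0.021 without Aβ42 replicate 3, range with a library left out -0.104 to 0.021), CAMK2A (-0.011 and -0.015 on log2 TPM with pseudocounts of 1 and 0.1, and -0.033 to 0.115 with a library left out) and CAMK2B (-0.107 to 0.0089, above 0 without Aβ42 replicate 1). The cause was not tested.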
